A study of Mus musculus with 4 samples.

Results

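Fibroblast growth factor (FGF) signaling in muscle stem cells was described here through 9 of the 27998 genes counted in the single-cell data: the receptors *Fgfr1*, *Fgfr2*, *Fgfr3* and *Fgfr4*, the Sprouty genes *Spry1*, *Spry2* and *Spry4*, the phosphatase gene *Dusp6* and the ligand gene *Fgf2*. They were chosen by name as FGF receptors and feedback genes, with no cut on their values but with earlier results of these data known, and all 9 had unique molecular identifiers (UMIs, each standing for 1 captured transcript) in the myogenic cells of all 4 libraries. The libraries were made by 10X Genomics 3′ sequencing of ITGA7+/VCAM+/Lin- cells sorted from the hindlimb muscles of 2 pooled mice per strain. B10 (strain C57/Bl10ScsSn, 15 weeks of age) is the control of *mdx* (C57BL/10ScSn-Dmdmdx, 11 weeks), and DBA (DBA/2, 13 weeks) is the control of D2-*mdx* (D2.B10-Dmdmdx, 14 weeks). Both dystrophic strains carry the *mdx* mutation of the dystrophin gene in every cell, and the labels name no treatment. Each strain is 1 library, so strain, age and library cannot be told apart, no test was run, and every interval below covers counting error only.

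FGF ligands bind receptor tyrosine kinases together with heparan sulfate proteoglycans and signal through the adaptor FRS2 to the RAS-ERK cascade. ERK activity induces its own inhibitors: Sprouty proteins restrain the cascade below the receptor, and DUSP6 is a cytoplasmic phosphatase that dephosphorylates ERK and is widely read as a marker of recent ERK activity. In muscle stem cells, FGF2 is a mitogen and Sprouty1 is known for its role in the return to and maintenance of quiescence, while FGFR1 and FGFR4 are the receptors usually described in these cells.

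The promoter sequences of 4 genes are shown because their transcripts carry the patterns described below: *Fgfr4* followed myogenic identity, *Fgfr2* was sparsest in the dystrophic libraries, *Spry1* separated the myogenic states and *Dusp6* was higher in dystrophic myogenic cells. Each is the 250 bases before the RefSeq transcript start on GRCm38.p6, written 5′ to 3′ on the strand of the gene. Capitals mark E-box matches (CANNTG, the motif of the myogenic basic helix-loop-helix factors, read alike on both strands).
Fgfr4, chr13:55152568-55152817, plus strand: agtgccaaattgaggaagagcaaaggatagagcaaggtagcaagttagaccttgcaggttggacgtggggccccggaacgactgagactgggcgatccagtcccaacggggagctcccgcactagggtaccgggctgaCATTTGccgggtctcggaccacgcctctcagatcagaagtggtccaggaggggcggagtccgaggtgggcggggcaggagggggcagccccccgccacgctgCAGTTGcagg
Fgfr2, chr7:130266809-130267058, minus strand: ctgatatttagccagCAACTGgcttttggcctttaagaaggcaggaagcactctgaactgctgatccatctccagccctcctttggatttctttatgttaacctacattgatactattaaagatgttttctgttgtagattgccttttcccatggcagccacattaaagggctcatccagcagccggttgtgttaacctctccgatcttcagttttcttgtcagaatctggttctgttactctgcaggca
Spry1, chr3:37639697-37639946, plus strand: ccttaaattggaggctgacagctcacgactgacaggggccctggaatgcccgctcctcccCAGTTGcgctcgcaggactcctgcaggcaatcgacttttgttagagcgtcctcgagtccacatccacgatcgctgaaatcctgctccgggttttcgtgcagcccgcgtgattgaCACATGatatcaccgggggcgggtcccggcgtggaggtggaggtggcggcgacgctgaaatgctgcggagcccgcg
Dusp6, chr10:99262981-99263230, plus strand: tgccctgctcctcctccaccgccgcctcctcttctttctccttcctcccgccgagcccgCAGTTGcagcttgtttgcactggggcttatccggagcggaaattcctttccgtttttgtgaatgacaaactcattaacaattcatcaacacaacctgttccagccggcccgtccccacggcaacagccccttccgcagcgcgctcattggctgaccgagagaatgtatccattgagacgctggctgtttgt

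RefSeq promoter entries matched 7 of the 9 genes, with 2 transcript starts for *Fgfr3*. The windows of *Spry1* and *Fgfr4* hold 2 E-box matches each, those of *Fgfr2*, *Dusp6* and *Spry2* and 1 of the *Fgfr3* windows hold 1, and the *Fgf2* window holds none. Of the 32851 windows of the same length, 66.2% hold an E-box match, so its presence sets none of these genes apart. The ETS core with flanks (CCGGAAG, 6.91% of all windows), the AP-1 motif (TGANTCA, 6.75%), the CRE (TGACGTCA, 1.55%) and TATAAA (12.4%), searched on both strands, had no match in any of the members' windows, and therefore overlapped no E-box. The *Fgfr2* window had 2 CpG dinucleotides and 44% G and C bases, against 15 to 24 CpGs in the windows of the other 6 genes and a median of 6 over all windows.

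In GENCODE M21 on GRCm38, *Fgfr1* (ENSMUSG00000031565) lies on chromosome 8 from 25513654 to 25575718, *Fgfr4* (ENSMUSG00000005320) on chromosome 13 from 55152640 to 55168759 and *Fgfr3* (ENSMUSG00000054252) on chromosome 5 from 33721674 to 33737068. *Spry2* (ENSMUSG00000022114) lies on chromosome 14 from 105891947 to 105896819, *Dusp6* (ENSMUSG00000019960) on chromosome 10 from 99263231 to 99267489 and *Spry4* (ENSMUSG00000024427) on chromosome 18 from 38586247 to 38601415. *Fgf2* (ENSMUSG00000037225, 37348346 to 37410108) and *Spry1* (ENSMUSG00000037211, 37639947 to 37644598) are neighbors on chromosome 3. The annotated span of *Fgf2* overlaps *Nudt6* and *Fgf2os* on the other strand. The annotated span of *Fgfr2* (ENSMUSG00000030849, chromosome 7, 130162451 to 133123350) overlaps 22 counted genes on its own strand, so reads shared with them are uncertain. The other 7 members overlap no counted gene.

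After filtering, 4581 B10, 6313 *mdx*, 3279 DBA and 5756 D2-*mdx* cells remained, with medians of 6675 to 10434 UMIs per cell, and library pairs shared 5 to 16 barcodes. Cells were clustered without the FGF genes and named by marker genes, so that every class name means a resemblance. Myogenic cells made up 96.5% of cells in B10 next to 76.3% in *mdx*, and 82.3% in DBA next to 72.6% in D2-*mdx*, and *Dmd* was lower in *mdx* than in B10 (120 against 324 CPM, or UMIs of the gene per 1000000 UMIs of the summed cells) and in D2-*mdx* than in DBA (93.8 against 288 CPM). The myogenic cells fell into MuSC-like (*Pax7*, *Myf5*, *Chodl*), DMD-enriched-like (*Postn*, *Col1a1*, *Col1a2*), cycling progenitor-like (*Top2a*, *Ccna2*), differentiating myocyte-like (*Myog*, *Actc1*) and interferon-high immunomyoblast-like cells. *Gper1*, not a listed marker, was among the leading genes of DMD-enriched-like cells. MuSC-like cells numbered 3983 in B10 and 3063 in *mdx*, while DBA had 2440 and D2-*mdx* 2736. Pericyte-, vascular smooth muscle-, glial cell-, Schwann cell-, endothelial cell-, white blood cell- and fibroblast or tenocyte-like cells also came through the sort, although the samples are labelled as muscle stem cells, and none of the 9 genes was among the 100 leading genes of any class.

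In MuSC-like cells, the class held by every library in the largest number, *Fgfr1* and *Fgfr4* were lower in both dystrophic libraries than in their controls, *Spry1* was at nearly the control level, and *Dusp6* was several-fold higher. *Fgfr1*, which encodes a receptor with high affinity for FGF2, was counted at 527 CPM in B10 next to 372 in *mdx*, and 467 in DBA next to 308 in D2-*mdx*. The B10 background gave a log2 ratio, dystrophic over control, of -0.50 (95% interval -0.54 to -0.46) and the DBA background one of -0.60 (-0.65 to -0.55). *Fgfr4*, which encodes the receptor associated with myogenic cells, had 313 CPM in B10 and 221 in *mdx*, while DBA had 301 and D2-*mdx* 216. Its ratios were almost the same in the pair of backgrounds, at -0.50 (-0.55 to -0.45) and -0.48 (-0.54 to -0.42), and both control libraries were above both dystrophic ones.

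**Figure D1:**
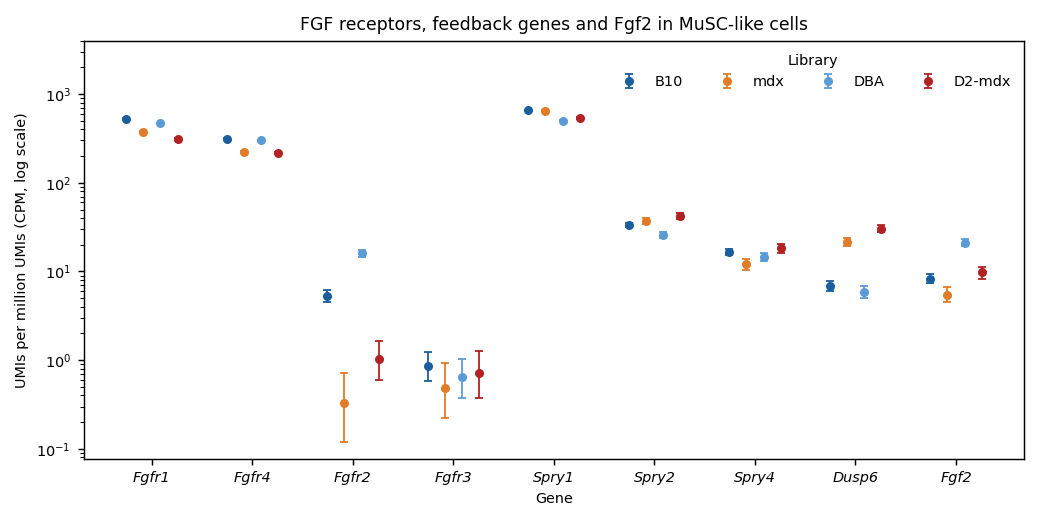
Level of each gene in the MuSC-like cells of each library, in UMIs per 1000000 UMIs (CPM) on a log axis, with exact Poisson 95% intervals as bars. The points of *Fgfr1* and *Fgfr4* lie lower in *mdx* and D2-*mdx* than in B10 and DBA, those of *Dusp6* lie higher, and *Fgfr2* spans from 0.326 CPM in *mdx* to 16.1 CPM in DBA.

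*Fgfr2* was sparse and differed most. It had 185 UMIs in the MuSC-like cells of B10 (5.32 CPM), 6 in *mdx* (0.326 CPM), 424 in DBA (16.1 CPM) and 17 in D2-*mdx* (1.02 CPM). The log2 ratio was -4.03 (-5.49 to -2.88) in the B10 background, where neither library reached the minimum of 10 CPM set for calling a difference, and -3.97 (-4.76 to -3.28) in the DBA background. DBA was also above B10 by 1.59 (1.34 to 1.85) on the log2 scale. *Fgfr3* was close to the limit of detection in every myogenic class, with 9 to 30 UMIs per library in MuSC-like cells and at most 0.863 CPM there, and its intervals of the disease ratios in these cells included 0.

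At an equal depth of 3000 UMIs per cell, *Fgfr1* was found in 77.6% of MuSC-like cells in B10 next to 65.2% in *mdx*, and 74.5% in DBA next to 60.0% in D2-*mdx*. The corresponding shares for *Fgfr4* were 60.4%, 47.4%, 58.0% and 46.6%. Without thinning, the shares were 80.7 to 98.0% for *Fgfr1* and 69.0 to 94.1% for *Fgfr4*, in cells with a median of 5520 to 10126 UMIs. In pericyte-like cells, used as a measure of background at 6882 to 11082 UMIs per cell, the thinned shares were 2.84 to 8.04% and 1.64 to 5.26%. Both receptors had a UMI in 47.2% of B10, 32.3% of *mdx*, 43.2% of DBA and 28.8% of D2-*mdx* MuSC-like cells. *Fgfr4* was detected in 60.8% of the B10 cells with an *Fgfr1* UMI and in 59.0% of those without, and in DBA the shares were 58.0% and 58.1%. The same pair of shares was 49.5% and 43.6% in *mdx* and 48.0% and 44.5% in D2-*mdx*. No interval was computed for these shares, and their differences were not tested.

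Among the feedback genes, *Spry1* in MuSC-like cells was counted at 659 CPM in B10 and 649 in *mdx*, while DBA had 499.8 and D2-*mdx* 538. The disease ratios were -0.02 (-0.05 to 0.01) and 0.11 (0.07 to 0.14) on the log2 scale, smaller than the difference of -0.40 (-0.43 to -0.37) between the healthy strains, DBA over B10. *Spry2* had 33.3 CPM in B10 and 37.4 in *mdx*, a ratio of 0.17 (0.03 to 0.30), and 25.7 CPM in DBA against 42.4 in D2-*mdx*, a ratio of 0.72 (0.57 to 0.88). *Spry4* had 16.5 CPM in B10 next to 12.02 in *mdx*, and 14.7 in DBA next to 18.2 in D2-*mdx*. Its ratio was negative in the B10 background, at -0.46 (-0.69 to -0.23), and positive in the DBA background, at 0.30 (0.08 to 0.52).

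*Dusp6* was the feedback gene with the largest difference. It had 240 UMIs in the MuSC-like cells of B10 (6.90 CPM), 398 in *mdx* (21.6 CPM), 157 in DBA (5.94 CPM) and 504 in D2-*mdx* (30.3 CPM). Both dystrophic libraries were above both controls. Its disease ratios were 1.65 (1.41 to 1.89) in the B10 and 2.35 (2.09 to 2.62) in the DBA background on the log2 scale. At equal depth, 1.52% of B10, 5.06% of *mdx*, 1.60% of DBA and 7.57% of D2-*mdx* MuSC-like cells had a *Dusp6* UMI, and the share in pericyte-like cells, which also hold the transcript, was 3.35 to 8.42%.

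*Fgf2*, the ligand gene, had in MuSC-like cells 289 UMIs in B10 (8.31 CPM) and 101 in *mdx* (5.49 CPM), while DBA had 559 (21.2 CPM) and D2-*mdx* 162 (9.75 CPM). The disease ratios were -0.60 (-0.94 to -0.27) and -1.12 (-1.38 to -0.86). As for *Fgfr2*, DBA was the highest library, 1.35 (1.14 to 1.56) above B10 on the log2 scale. Because an antisense gene overlaps *Fgf2*, and strand handling in the counting is not given in the sources used here, its UMIs cannot be assigned to the sense transcript alone.

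Over all myogenic cells, *Fgfr1*, *Fgfr4*, *Fgfr2* and *Spry1* were further below their controls than in MuSC-like cells alone. *Fgfr1* stood at 521 CPM in B10 and 276 in *mdx*, which is -0.91 (-0.95 to -0.88) on the log2 scale, and at 455 in DBA but 219 in D2-*mdx*, which is -1.05 (-1.09 to -1.01). *Fgfr4* had 306 CPM in B10 next to 191 in *mdx*, and 292 in DBA next to 166 in D2-*mdx*, with ratios of -0.68 (-0.72 to -0.63) and -0.81 (-0.86 to -0.77). *Spry1*, nearly level in MuSC-like cells, had 639.9 CPM in B10 and 429 in *mdx*, while DBA had 475 and D2-*mdx* 343, with ratios of -0.58 (-0.60 to -0.55) and -0.47 (-0.50 to -0.43). The shares of the states differed between the dystrophic and control libraries. MuSC-like cells were 3983 of the 4419 myogenic cells in B10 and 3063 of 4817 in *mdx*. In DBA they were 2440 of 2700 and in D2-*mdx* 2736 of 4177. With the state levels of the dystrophic library weighted by the UMI shares of the control, the *Spry1* ratios became -0.08 and 0.06. Those of *Fgfr1* became -0.56 and -0.65, and those of *Dusp6* 1.48 and 2.14. The reverse weighting, control levels at the UMI shares of the dystrophic library, gave -0.21 and -0.29 for *Spry1*. It gave -0.10 and -0.17 for *Fgfr1*, and 0.61 and 0.52 for *Dusp6*. The part of the state shares in these ratios was not tested.

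**Figure D2:**
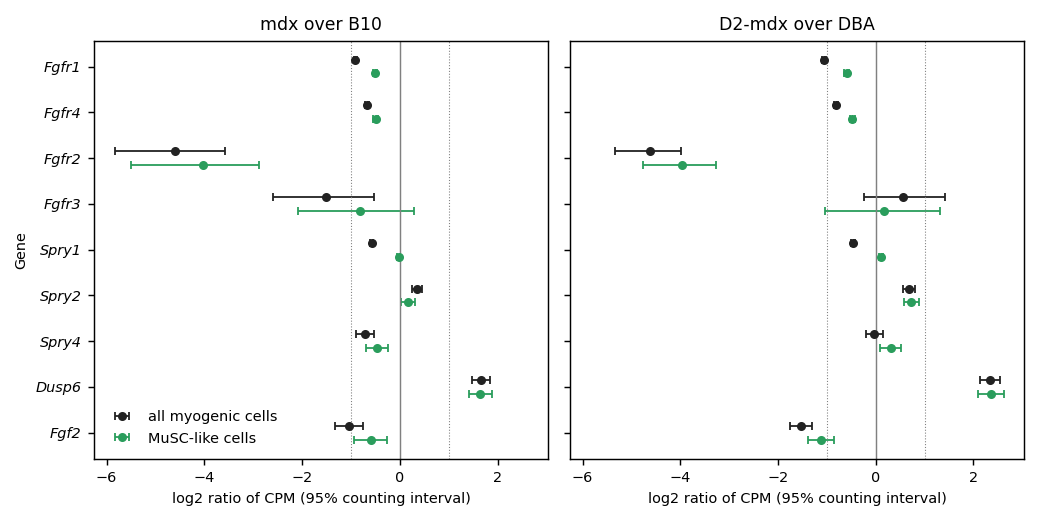
Log2 ratios of CPM for *mdx* over B10 (left) and D2-*mdx* over DBA (right), over all myogenic cells (black) and MuSC-like cells (green), with 95% counting intervals as bars and dotted lines at 2-fold. *Dusp6* is to the right of 0 in all 4 comparisons, *Fgfr1*, *Fgfr4*, *Fgfr2* and *Fgf2* to the left, and *Spry1* moves from -0.58 and -0.47 to -0.02 and 0.11 when only MuSC-like cells are taken.

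*Dusp6* kept its size over all myogenic cells, at 1.66 (1.48 to 1.85) in the B10 background (25.1 against 7.95 CPM, 3.16-fold) and 2.33 (2.13 to 2.54) in the DBA background (37.1 against 7.37 CPM, 5.03-fold). *Fgfr2* was 24.2-fold and 24.6-fold lower, on 8 UMIs against 191 and on 21 against 447. *Fgf2* ratios were -1.04 (-1.32 to -0.76) and -1.53 (-1.76 to -1.31). *Spry2* was higher in both, by 0.35 (0.24 to 0.45) and 0.68 (0.55 to 0.81). *Spry4* ratios were -0.71 (-0.89 to -0.53) and -0.03 (-0.21 to 0.16), and *Fgfr3* had 12 UMIs against 34 in the B10 background and 36 against 21 in the DBA background.

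For *mdx* over B10 in myogenic cells, 6 of the 9 genes reached 10 CPM in a library of the pair, 1 of them (*Dusp6*) was at least 2-fold higher, where 4.7% of 8476 genes were, and none was at least 2-fold lower, where 5.17% were. *Fgfr2*, *Fgfr3* and *Fgf2*, under the minimum in both libraries, and *Fgfr1*, just short of 2-fold, are outside that count. For D2-*mdx* over DBA, 8 genes reached the minimum, *Dusp6* was at least 2-fold higher (5.86% of 8502 genes) and *Fgfr1*, *Fgfr2* and *Fgf2* were at least 2-fold lower (5.89%). In MuSC-like cells, *Dusp6* was again the only member at least 2-fold higher in *mdx* (2.86% of 8362 genes) and in D2-*mdx* (3.51% of 8349 genes). None was 2-fold lower in *mdx* (3.35% of genes), and *Fgfr2* and *Fgf2* were in D2-*mdx* (3.55%). Between the healthy strains, *Fgfr2* and *Fgf2* were at least 2-fold higher in DBA (1.76% of 8344 genes) and no member was lower (1.81%). Between the dystrophic strains, no member that reached the minimum was 2-fold higher (1.99% of 8178 genes) or lower (1.58%) in D2-*mdx*. *Fgfr2*, *Fgfr3* and *Fgf2* were under the minimum in both and are outside that count. For D2-*mdx* over *mdx*, *Fgfr2* had a log2 ratio of 1.60 (0.37 to 2.99) on 21 UMIs against 8. *Fgfr3* had one of 1.80 (0.82 to 2.87) on 36 UMIs against 12. In every comparison that called them, *Dusp6*, *Fgfr2* and *Fgf2* reached the minimum only in the library where they were higher. The minimum thus admitted them by the value that was called, and their calls add nothing to their ratios. These 4 comparisons share libraries, so their counts are not independent of one another.

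Across MuSC-like cells and the 3 states set against them, mean levels over the 4 libraries of *Fgfr1*, *Fgfr4* and *Spry1* were highest in MuSC-like and lowest in cycling progenitor-like cells. Those of *Spry2*, *Spry4* and *Dusp6* were highest in differentiating myocyte-like cells. *Spry1* had 252 CPM in the cycling progenitor-like cells of B10 and 91.6 in those of *mdx*, next to 205 in DBA and 69.7 in D2-*mdx*. Every one of these values was under the MuSC-like value of its library, by log2 ratios of -1.38, -2.82, -1.28 and -2.95 in that order. In differentiating myocyte-like cells, *Spry1* had 404, 132, 209 and 165 CPM, with ratios from -2.29 to -0.70. In DMD-enriched-like cells, it had 509, 288, 345 and 216 CPM, with ratios from -1.31 to -0.37. In both dystrophic libraries the gap between a state and MuSC-like cells was wider than in their controls for each of these states. The classes differed in size and in *Pax7* as well: the cycling progenitor-like class had 14 cells in B10 and 179 in *mdx*, while DBA had 31 and D2-*mdx* 334. *Pax7* in these cells was at 345 CPM in the B10 and 274 in the DBA library but at 118 and 78.2 in their dystrophic counterparts.

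**Figure D3:**
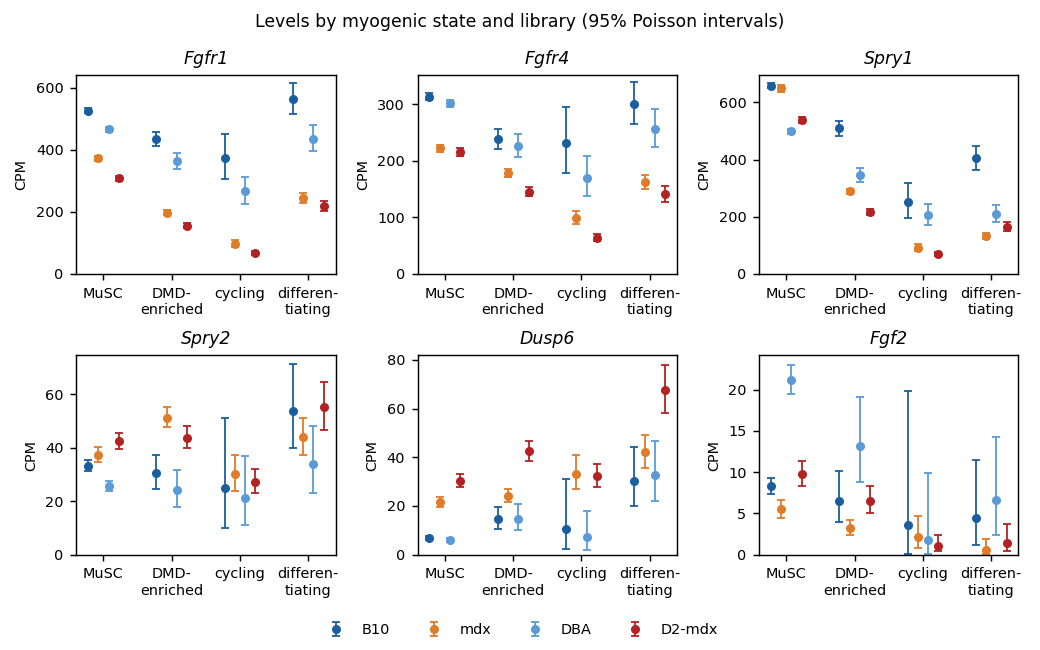
CPM of 6 genes in MuSC-like, DMD-enriched-like, cycling progenitor-like and differentiating myocyte-like cells, 1 point per library with an exact Poisson 95% interval. *Fgfr1*, *Fgfr4* and *Spry1* are lowest in cycling progenitor-like cells in the dystrophic libraries, and *Dusp6* is highest in differentiating myocyte-like cells in all 4 libraries.

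The receptors followed the same order as *Spry1* between MuSC-like and cycling cells. *Fgfr1* had 373 CPM in the cycling progenitor-like cells of B10 (105 UMIs) and 96.4 in those of *mdx*, next to 267 in DBA and 66.2 in D2-*mdx*, with ratios to MuSC-like cells of -0.50, -1.95, -0.81 and -2.22. *Fgfr4* had 231, 99.3, 170 and 64.0 CPM, with ratios of -0.44, -1.16, -0.83 and -1.75. In differentiating myocyte-like cells the receptors were nearer to the MuSC-like level. *Fgfr1* had 564 CPM in B10 next to 245 in *mdx*, and 437 in DBA next to 218 in D2-*mdx* there, with ratios from -0.60 to 0.10, and *Fgfr4* ratios ran from -0.62 to -0.06. Within each of these states, both receptors were lower in *mdx* than in B10 and in D2-*mdx* than in DBA. *Pax7* was lower there too. In differentiating myocyte-like cells it had 522 CPM in B10 next to 115 in *mdx*, and 381 in DBA next to 130 in D2-*mdx*. In DMD-enriched-like cells it had 747, 380, 547 and 348 CPM in that order. Cells of the same state name thus differed between libraries, and the part of this in the receptor ratios was not tested.

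*Dusp6* ran the other way. In differentiating myocyte-like cells it had 30.3 CPM in B10 (27 UMIs) and 42.03 in *mdx*, while DBA had 32.8 (30 UMIs) and D2-*mdx* 67.6, with log2 ratios to MuSC-like cells of 2.14, 0.96, 2.47 and 1.16. The disease ratio in this state was 0.47 (-0.12 to 1.12) in the B10 background, an interval that includes 0, and 1.04 (0.48 to 1.65) in the DBA background. *Spry4* was also higher than in MuSC-like cells in all 4 libraries, at 24.1 to 29.6 CPM with ratios of 0.70 to 1.04, as was *Spry2*, at 33.9 to 55.2 CPM with ratios of 0.23 to 0.70. *Fgf2* was lower in all 4 libraries, at 0.532 to 6.57 CPM, on 2 to 6 UMIs each.

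As means over the 4 libraries, 7 of the 9 genes reached the minimum in each comparison of states with MuSC-like cells. No member was 2-fold higher (1.67% of 8285 genes) or lower (1.65%) in DMD-enriched-like cells. In cycling progenitor-like cells none was higher (12.2% of 8753 genes) and *Fgfr1*, *Spry1* and *Fgf2* were lower (10.8%). *Fgf2* had only 1 to 6 UMIs per library there, and in the comparisons of states it reached the minimum only through its MuSC-like mean of 11.2 CPM. In differentiating myocyte-like cells *Dusp6* was higher (4.15% of 8388 genes) and *Spry1* and *Fgf2* were lower (6.57%). At resolution 0.4 the cycling progenitor-like class took in 120 B10 and 81 DBA cells. The mean *Fgfr1* ratio in cycling cells, -1.06, fell short of 2-fold when *mdx* or D2-*mdx* was left out, and *Fgf2* fell under the minimum of 10 CPM without DBA in both states. DMD-enriched-like cells separated from the other classes at the resolution used and at a finer one. No cluster took that name with doublets kept, with the FGF genes among the features or with wider limits on genes per cell. Under the wider limits, a cluster of 5521 cells left without a name had *Postn*, *Gper1* and *Col1a2* among its leading genes, along with *Acta1*.

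Within the MuSC-like cells, the largest cluster (8008 cells) had a mean of 55695 CPM over 12 immediate-early genes (*Fos*, *Jun*, *Egr1* and others, which are induced within minutes of stimulation or tissue dissociation), and the next one (3226 cells) had 10298 CPM. The feedback genes were all higher in the cluster with more of these transcripts, in 4 of 4 libraries. *Spry1* had 697 against 572 CPM in B10, 721 against 472 in *mdx*, 532 against 432 in DBA and 577 against 415 in D2-*mdx*, or log2 ratios of 0.29 to 0.61. *Spry2* ratios were 0.44 to 0.83, those of *Spry4* 0.29 to 1.07 and those of *Dusp6* 0.34 to 1.12. Of these 16 ratios, the one of *Spry4* in DBA had an interval that included 0 (-0.06 to 0.66). *Fgfr4* was lower in the same cluster in 4 of 4 libraries, by -0.21 to -0.10, and *Fgfr1* was higher in 2 and lower in 2, between -0.17 and 0.14. *Fgf2* was also lower there in 4 of 4 libraries, by -0.39 to -0.03, but only its DBA interval (-0.65 to -0.11) excluded 0.

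**Figure D4:**
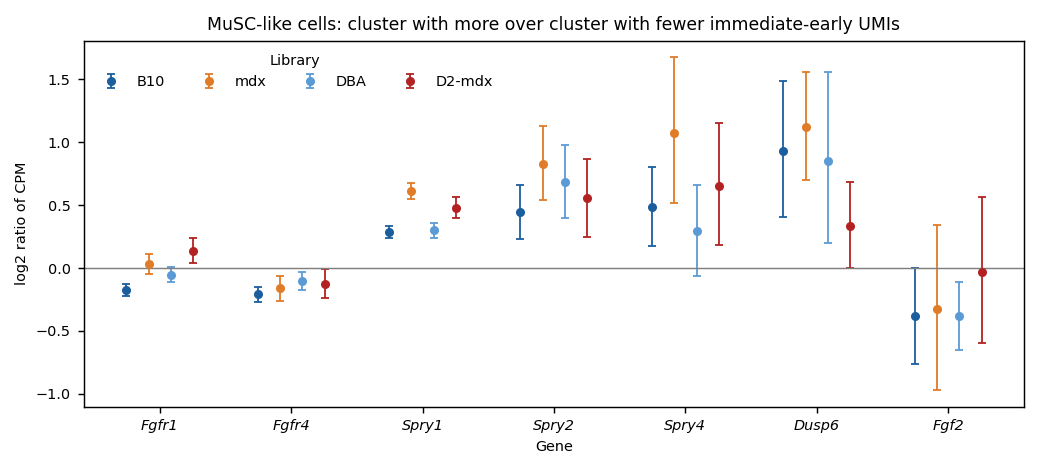
Log2 ratio of CPM between the MuSC-like cluster with more and the one with fewer immediate-early UMIs, 1 point per library with a 95% counting interval. All 16 points of *Spry1*, *Spry2*, *Spry4* and *Dusp6* lie above 0, and the 4 points of *Fgfr4* lie between -0.21 and -0.10.

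The immediate-early level of the larger cluster was itself 52629 CPM in B10 and 64071 in *mdx*, and 43939 in DBA and 62141 in D2-*mdx*, and its part in the disease ratios of the feedback genes was not tested. Within the cluster with fewer immediate-early UMIs, *Dusp6* had 4.11 CPM in B10 (36 UMIs) next to 11.3 in *mdx* (55 UMIs), and 3.52 in DBA (24 UMIs) next to 26.2 in D2-*mdx* (89 UMIs). Both dystrophic libraries were above both controls there. The immediate-early level in this cluster was 8699 CPM in B10 and 8929 in *mdx*, and 10479 in DBA and 13086 in D2-*mdx*. *Fgfr1* in the same cells had 577, 365, 484 and 290 CPM, and *Fgfr4* 350, 242, 320.5 and 232 CPM. *Spry1* had 572 CPM in B10 and 472 in *mdx*, and 432 in DBA and 415 in D2-*mdx*, with ratios of -0.28 (-0.35 to -0.21) and -0.058 (-0.15 to 0.034), the second of which cannot be told from 0 at this depth.

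Outside the myogenic cells, each gene was read against a background of MuSC transcripts, measured as the median of 5 MuSC markers (*Pax7*, *Myf5*, *Chodl*, *Chrdl2* and *Nppc*) in percent of their MuSC-like level. That measure was 1.73 to 5.12% in pericyte-like, 0 to 1.83% in vascular smooth muscle-like, 2.73 to 13.5% in endothelial cell-like and 0 to 5.47% in fibroblast or tenocyte-like cells. It was 1.24 to 15.9% in Schwann cell-like, 15.6 to 49.6% in glial cell-like and 13.9 to 57.6% in white blood cell-like cells. It thus differed between classes within a library, and its source was not tested. Values of the members in the last 2 classes were therefore read only where they exceeded the MuSC-like level.

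*Fgfr4* was within or slightly above the range of this measure in most of the other classes. It had 2.23 to 6.42% of its MuSC-like level in pericyte-like and 0 to 3.13% in vascular smooth muscle-like cells. The range was 2.87 to 7.95% in endothelial cell-like and 3.44 to 8.30% in fibroblast or tenocyte-like cells. In Schwann cell-like cells it reached further above the measure, at 2.10 to 36.1%, on 2 to 12 UMIs per library. *Fgfr1* differed between the same classes. It had 3.03 to 7.62% of its MuSC-like level in pericyte-like, 3.15 to 14.5% in endothelial cell-like and 13.5 to 35.7% in Schwann cell-like cells. The share was 29.0 to 45.4% in vascular smooth muscle-like and 53.8 to 65.0% in fibroblast or tenocyte-like cells. In fibroblast or tenocyte-like cells that was 283 CPM in B10 (20 UMIs) and 242 in *mdx* (79 UMIs), while DBA had 280 (27 UMIs) and D2-*mdx* 183 (116 UMIs). *Fgfr3* had its highest mean level in endothelial cell-like cells, with 29 UMIs in *mdx* (13.2 CPM) and 9 in D2-*mdx* (11.5 CPM), and had no UMI in glial cell-, Schwann cell-, white blood cell- or fibroblast or tenocyte-like cells of any library. Over the 14 endothelial cell-like cells of B10 and the 9 of DBA there were 1 and 2 UMIs. *Fgfr2* had 16 UMIs in B10 pericyte-like cells, all in 3 of 97 cells, and none in the 610 of *mdx* and 985 of D2-*mdx*. It had 7 UMIs (11.0 CPM) in the 50 fibroblast or tenocyte-like cells of D2-*mdx*.

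**Figure D5:**
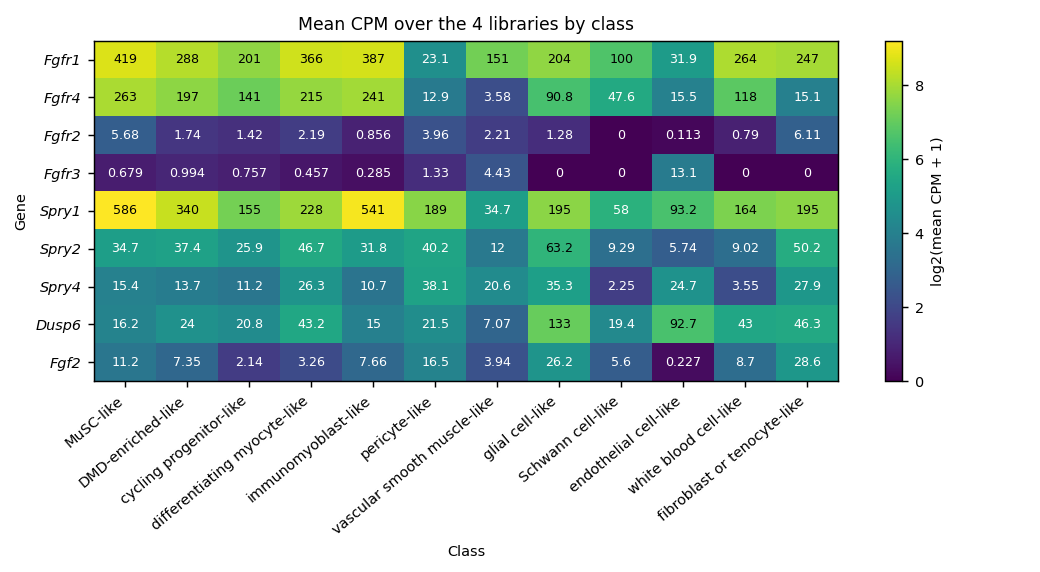
Mean CPM over the 4 libraries for each gene (rows) and class (columns), printed in each cell and colored by log2 of the mean plus 1. *Fgfr1*, *Fgfr4* and *Spry1* have their highest means in MuSC-like cells, *Dusp6* in glial cell-like and endothelial cell-like cells, and *Fgfr3* in endothelial cell-like cells.

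The feedback genes were spread more widely. *Spry1* had 22.3 to 38.5% of its MuSC-like level in pericyte-like cells, or 208 CPM in B10 next to 249.8 in *mdx*, and 178 in DBA next to 120 in D2-*mdx*. *Spry4* in pericyte-like cells was above its MuSC-like level in all 4 libraries, with 38.2, 52.4, 38.6 and 23.1 CPM in the same order. In glial cell-like cells *Spry4* had 149 to 393% of that level. *Dusp6* in glial cell-like cells had 96.4 CPM in B10 (20 UMIs) and 164 in *mdx*, while DBA had 128 (50 UMIs) and D2-*mdx* 143, which was 470 to 2152% of the MuSC-like level. Endothelial cell-like cells had 158 CPM of *Dusp6* in B10 (19 UMIs) next to 94.4 in *mdx*, and 38.6 in DBA (4 UMIs) next to 80.3 in D2-*mdx*. *Spry2* in glial cell-like cells was above the MuSC-like level in *mdx*, DBA and D2-*mdx*, at 80.9, 56.3 and 91.6 CPM, and below it in B10, at 24.1 CPM on 5 UMIs. *Fgf2* was higher in fibroblast or tenocyte-like than in MuSC-like cells in *mdx* (18.4 CPM), DBA (51.8 CPM) and D2-*mdx* (44.1 CPM), on 5 to 28 UMIs, and had 0 UMIs in the 6 such cells of B10, where 3 counts would be 42.5 CPM. It was above its MuSC-like level in all 4 libraries in glial cell-like cells (121 to 522%, on 9 to 60 UMIs) and in pericyte-like cells (104 to 187%).

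In pericyte-like cells, *Dusp6* did not repeat the disease ratios of the myogenic cells. It had 19.1 CPM in B10 (20 UMIs) and 26.3 in *mdx*, and 27.9 in DBA against 12.7 in D2-*mdx*, so that the dystrophic library was the lower one in the DBA background. *Fgf2* in the same cells had 8.60 CPM in B10 (9 UMIs) and 8.11 in *mdx*, while DBA had 31.0 and D2-*mdx* 18.2. DBA was the highest library for *Fgf2* in pericyte-like as well as in MuSC-like cells.

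Over the 29 class-by-library profiles with at least 50 cells, the likeness of genes was given as the Pearson correlation of log2(CPM + 1). It describes profiles that share libraries and background. Cycling progenitor-like cells and all non-myogenic classes except pericyte-like cells had fewer than 50 cells in both controls. Their profiles came from dystrophic libraries only, so class and disease cannot be told apart in these correlations. Among the genes most like *Fgfr4* were *Prox1* (0.98) and *Pax7* (0.97), transcription factor genes known from muscle stem cells. Those most like *Spry1* were *Maff* (0.94), *Medag* (0.93) and *Egr1* (0.92), of which *Maff* and *Egr1* encode transcription factors induced by stimulation. *Fgfr1* was most like *Abca5* (0.92), *9330159F19Rik* (0.91) and *Ncoa1* (0.90), *Fgf2* most like *Thbs2* (0.90), *P3h3* (0.88) and *Loxl2* (0.83), genes of the extracellular matrix or its processing, and *Fgfr2* most like *Slc22a3* (0.76), *Svep1* (0.74) and *Neo1* (0.71). For *Spry2* the leading gene was *Dennd2a* (0.83), for *Spry4* *Trappc13* (0.79) and for *Dusp6* *Atg101* (0.82), and *Fgfr3* was too sparse to be compared. Between members, *Fgfr1* and *Fgfr4* were most alike (0.86), followed by *Fgfr4* and *Spry1* (0.74), whereas *Spry1* and *Dusp6* had -0.56.

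Of 75 other genes of the FGF pathway, 41 reached 10 CPM in *mdx* or B10 myogenic cells and 40 in D2-*mdx* or DBA. At least 2-fold higher were 6 genes and lower 3 in each comparison, beside the 4.7% and 5.17% of all genes in the B10 background and the 5.86% and 5.89% in the DBA background. The median log2 ratio over the list was -0.19 for *mdx* over B10, against -0.03 over all genes, and -0.04 for D2-*mdx* over DBA, against -0.07. None of the 17 other secreted ligand genes reached the minimum in either comparison. Among the 14 co-receptor genes, 7 reached it and 3 were higher in both, the heparan sulfate proteoglycan genes *Sdc1* and *Gpc1* and the neuropilin gene *Nrp1*. The rest of the 7 had log2 ratios from -0.75 to 0.58 for *mdx* over B10 and from -0.50 to 0.51 for D2-*mdx* over DBA. Further proteoglycan genes lay on both sides of 0 among them. *Nrp1* went from 5.54 CPM in B10 to 57.1 in *mdx*, higher by 3.36 (3.16 to 3.57) on the log2 scale. Its 5.87 CPM in DBA compared with 51.6 in D2-*mdx*, a ratio of 3.13 (2.91 to 3.37). It reached the minimum only in the dystrophic libraries.

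Of the 9 ERK target genes in the list, 7 reached the minimum and 3 were higher in each comparison, with *Fosl1* and *Phlda1* in both, *Etv1* in *mdx* and *Ier3* in D2-*mdx*. The other 4 had ratios from -0.59 to -0.12 for *mdx* over B10 and from -0.35 to 0.69 for D2-*mdx* over DBA. The medians of the 7 were -0.12 (all genes -0.034) and 0.69 (all genes -0.073), the second being the ratio of *Etv1*. *Fosl1* and *Etv1* reached the minimum only in the dystrophic library of each pair. The counts and medians are therefore not read as a result about ERK targets. *Fosl1*, which encodes an AP-1 subunit stabilized by ERK, had 0.401 CPM in B10 (16 UMIs) next to 11.7 in *mdx*, and 0.597 in DBA (18 UMIs) next to 15.1 in D2-*mdx*, with ratios of 4.87 (4.15 to 5.69) and 4.66 (3.99 to 5.43). *Phlda1* ratios were 1.65 (1.58 to 1.71) and 2.27 (2.18 to 2.36). Of the 19 adaptor and kinase genes, 18 reached the minimum and none was 2-fold apart in *mdx* over B10. *Frs2*, the FGF receptor adaptor gene, was at least 2-fold lower in D2-*mdx* over DBA, at 10.4 against 21.6 CPM. Its ratio for *mdx* over B10 was -0.88 (-1.06 to -0.70), short of 2-fold. Among 12 further feedback inhibitor genes, *Spred2* was lower in both comparisons, at -1.02 (-1.12 to -0.92) and -1.13 (-1.24 to -1.02). *Fgf13*, an intracellular FGF-like protein gene that does not signal through the receptors, had 19.9 CPM in B10 and 4.01 in *mdx*. It had 30.9 CPM in DBA and 3.96 in D2-*mdx*, so only the control libraries reached the minimum. Its ratios were -2.31 (-2.56 to -2.06) and -2.96 (-3.23 to -2.71). *Fgf11*, of the same group, had a ratio of -1.07 (-1.23 to -0.90) for *mdx* over B10 and of -0.73 (-0.91 to -0.55) for D2-*mdx* over DBA.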

How the data were processed

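The authors sorted the cells, made 10X Genomics 3′ V3.1 libraries, used Cell Ranger 3.0.1 with the mm10 build (both per the submitters' processing notes) and deposited whole-number UMI counts per gene and barcode without normalization. Here the study's limits were applied (from 1000 to 5000 genes, mitochondrial share up to 8%), and predicted doublets were removed with Scrublet in scanpy 1.11.5 (2.70 to 5.34% of cells). Cells of the 4 libraries were aligned with the CCA anchors of Seurat 5.3.0 (R 4.3.3; 2000 features less the FGF genes, 30 dimensions), clustered at resolution 0.1 and, for myogenic cells, 0.2, and named by the highest mean of their standardized markers. UMIs were summed per class and library into CPM. Myogenic totals were 30139920 to 40354623 UMIs. Intervals are exact at 95%: Poisson for CPM, Clopper-Pearson for shares, and from the binomial share of both counts for ratios, and they cover counting error only. Shares were taken in cells thinned to 3000 UMIs, which left out 45 B10 cells with fewer. A 2-fold call needed 10 CPM in a library of the pair.

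With 1 library per strain no test was run, nor was disease tested across the backgrounds, where each arm would hold 2 libraries. The named genes are the 9 members, *Dmd*, class markers, the 3 highest and 3 lowest genes of the wider FGF list in each disease comparison, the members of that list past 2-fold, and the 3 genes most like each member. A marker listed for the measure of background and a gene among those most like a member are not reported here. The members, lists and comparisons were chosen with earlier results of these data known. Computations used Python 3.11.15, numpy 2.4.6, scipy 1.17.1, pandas 2.3.3 and matplotlib 3.10.9. Intervals were run on counts simulated as Poisson, the model they assume, which leaves out spread between cells and between mice. That run therefore checks the computation only. Alternatives were TMM library sizes of edgeR 4.0.16, DESeq2 1.42.0 size factors, per-cell means, other minimums of CPM, other filters on cells, doublets kept, FGF genes among the features, no integration, resolution 0.4, cells gated by marker UMIs, libraries pooled or left out in turn, and other thinning.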

Additional observations from a re-analysis of the deposited data

Results flagged for a closer look

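*Spry4* in MuSC-like cells drew attention because its disease ratio pointed in opposite directions in the backgrounds: *mdx* was below B10, at -0.46 (95% interval -0.69 to -0.23), whereas D2-*mdx* was above DBA, at 0.30 (0.08 to 0.52). The difference between these log2 ratios was 0.76 (counting interval 0.45 to 1.07). With 1 library per strain this difference was not tested.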

How the results depend on the processing

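Each strain is 1 library without replicate numbers, so no replicate block could be used, and a disease effect blocked on background, with 2 pairs of libraries, was not fitted. The minimum of CPM moved most counts of genes at least 2-fold apart. With no minimum there were 4 members for *mdx* over B10 in myogenic cells (*Fgfr2*, *Fgfr3* and *Fgf2* lower, *Dusp6* higher) and 2 in MuSC-like cells, and 23 and 19 genes of the wider FGF list in the B10 and DBA backgrounds. With a minimum of 50 CPM there were 0 members for *mdx* over B10 in myogenic and in MuSC-like cells, 1 (*Fgfr1*) for D2-*mdx* over DBA in myogenic and 0 in MuSC-like cells, and 4 and 5 genes of the wider list. For *mdx* over B10, *Fgfr1* passed 2-fold, giving 2 members, over all cells that passed the filters and with at least 500 genes and no upper limit. UMIs pooled over the libraries gave 4 members for DMD-enriched-like and 5 for cycling progenitor-like over MuSC-like cells. With at least 500 genes and no upper limit, 1 member (*Spry1*) was left for cycling progenitor-like cells. Leaving out each library in turn gave 0 members for DMD-enriched-like, 2 to 4 for cycling progenitor-like and 2 to 3 for differentiating myocyte-like cells. The share of all genes past 2-fold was not computed in these alternatives. Their counts are therefore not read as a result about the FGF genes, and with no minimum they include genes of very few UMIs. The *Spry1* ratio of D2-*mdx* over DBA in myogenic cells changed sign to 0.21 in cells gated by marker UMIs (363 to 1045 cells per library), and the *Spry4* ratio of differentiating myocyte-like over MuSC-like cells became -0.0030 with the FGF genes among the features, where DMD-enriched-like cells joined that class. Of the other values, mostly single-gene ratios and shares, 547 stayed within the band of the value reported and 157 did not. The band was the counting interval for ratios between libraries and for shares. For ratios between states it was the range over the libraries, which was often wider. The other minimums of CPM leave every ratio unchanged, so those ratios were bound to stay within the band. Shares at other depths of thinning change with depth itself. The tally is therefore no measure of how stable the values are, and the causes of the other moves were not tested. The *Dusp6* disease ratios stayed between 1.54 and 2.82 in every alternative run. Without integration the clusters followed the libraries, so no states could be compared, and with at least 500 genes and no upper limit a single MuSC-like cluster passed the size limit, so the immediate-early comparison was not run. A cluster of 5521 cells under that filter and one of 3599 without integration scored highest for myonuclei but had 1 of its markers among their 10 leading genes. They were kept among the myogenic cells without a name, a rule chosen after seeing the data. The rule was applied only to clusters scored as myonuclei. The MuSC-like class of the main clustering also had 1 of its 6 markers among its 10 leading genes.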
